A study of Mus musculus with 20 samples.

Results

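The regions described here are stretches of the mouse genome that were called as open chromatin in cardiac fibroblasts at day 3 after myocardial infarction (MI) and in no library of another time or of uninjured hearts. They were chosen from the deposited peak lists themselves: the peaks of all 10 ATAC-seq lists on chromosomes 1 to 19 and X were joined into 143246 regions wherever they overlapped by 1 base or more, and a region was kept when both day 3 lists, and none of the 8 other lists, held a peak in it. Of the 143246 regions, 7793 (5.44%) met this rule. ATAC-seq uses a transposase to cut accessible DNA, and a peak is a place where cuts pile up. The study made 2 ATAC-seq and 2 RNA-seq libraries for each of 5 groups: uninjured hearts, then MI hearts on day 3, day 7, in week 2 and in week 4. The cells were sorted from digested mouse hearts as eGFP-positive cells of the Tcf21 lineage, marked by a tamoxifen-inducible MerCreMer. All 5 groups carried this label, and tamoxifen was given to induce it at 75 mg/kg per day for 5 days. Tcf21 is a transcription factor gene active in the heart's own fibroblasts, and the label stays on in their descendants whatever they become. Nothing used here states strain, age or sex, or whether replicate libraries are from different animals, so that p-values measure the spread between these libraries. At day 3, day 7 and week 4 the RNA replicates differed in Y-linked RNA and were thus not repeats of 1 animal or pool, while nothing used here tells whether those of uninjured hearts and week 2 were technical repeats.

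Chromatin opens where transcription factors displace or loosen nucleosomes, and most openings that differ between states of a cell lie away from gene starts, at enhancers. In the days after an infarct, fibroblasts of the heart leave quiescence, divide, secrete cytokines and begin to lay down the matrix of the scar, before they settle as matrix-producing and later quiescent cells. AP-1, a family of dimers of Fos and Jun proteins, binds the letters TGACTCA or TGAGTCA and is known for opening enhancers after stimulation and injury.

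The RNA libraries held 16397211 to 21043997 expected counts. They differed in ways that the groups do not explain: for the Y-linked genes Ddx3y, Eif2s3y, Kdm5d and Uty, counts scaled to library size (CPM) summed to 127 in day 3 replicate 1 and 0.0554 in day 3 replicate 2, and each of day 7 and week 4 also held 1 library at or above 256 CPM and 1 at or below 0.246 CPM. Both uninjured libraries were low (0.107 and 0.536 CPM) and both week 2 libraries high (437 and 412 CPM), so that between those groups Y-linked RNA and time cannot be told apart. Pearson correlations of log2(CPM + 1) over the 14968 genes tested were 0.932 to 0.969 between libraries of a group, and week 2 replicate 1 correlated better with a library of another group (0.945) than with its own partner (0.933). The read depth of the ATAC-seq libraries is not in the lists. The 2 day 3 lists were the longest, with 105647 and 107774 peaks, against 63882 to 93661 in the 8 other lists, and a longer list has more chances of a peak that no other list holds. Tcf21 itself was measured at 10.7 and 7.82 CPM in the day 3 RNA libraries, against 9.53 to 36.2 CPM in the 8 others (log2 difference −1.10 ± 0.454 (SE), edgeR adjusted p = 0.13).

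A small share of the regions covered an annotated start of a gene, and the sequences there can be shown. RefSeq promoter windows, which run from 250 bases before to 50 after a RefSeq start of a gene (build GRCm38.p6, 300 bases each), were at hand for 32585 starts, none on chromosome 18. Of the 7529 day 3-only regions on the chromosomes with windows, 203 (2.70%) overlapped one. Regions open at day 7 only had a like share, 2.62%. The share was 5.49% for regions open at days 3 and 7 only and 29.6% for those open in all 10 lists. These parts also differ in region width, whose role was not tested. A gene can have several starts. Of the 124 windows of day 3-only regions whose gene is in the RNA table, 75.8% began within 1 kb of the upstream end of the gene's span. The rest began at other starts. The promoters so covered belonged mostly to genes with RNA at or near 0. Of the 120 genes of these windows that the RNA table holds, 37 (30.8%) had enough counts for a test, and the median level of the 120 at day 3 was 0 CPM. In regions open at days 3 and 7 only, 53.4% of 73 such genes were tested, with a median of 0.208 CPM at day 3. In regions open in all 10 lists, 94.1% of 8788 such genes were tested, with a median of 20.4 CPM at day 3. The strongest of the promoters, by the lower of its 2 day 3 values of −log10 q, was that of Tmem179 (22), a transmembrane protein gene at 0 CPM in both day 3 libraries and at no more than 0.246 CPM in any other library. Next came Shisal2b (20.9) at 0 to 0.942 CPM at day 3 and Sv2c (18.9), a synaptic vesicle protein gene, at 0 to 0.356 CPM.

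Of 28 motifs searched, only both forms searched for AP-1 had a share in these windows whose interval lay above the share of all windows. For the narrower form the margin was slight, with a lower end of 5.29% against 5.23%. The wider form takes any base at N, and windows that matched it alone had A or T there, not TGACTCA or TGAGTCA. The gap to all windows was larger for the wider form, and so rests in part on letters other than these. The form TGANTCA, read on both strands, was present in 31 of the 203 windows (15.3%, 95% Wilson interval 11% to 20.9%), against 13 of 109 windows (11.9%) of regions open at days 3 and 7 only, 5.33% of the 11117 windows of regions open in all 10 lists and 7.85% of all 32585 windows. The narrower TGACTCA, which is contained in the first form, was in 17 windows (8.37%, interval 5.29% to 13.0%), against 10 of 109 windows (9.17%) of regions open at days 3 and 7 only, 3.89% of the windows open in all 10 lists and 5.23% of all windows. In the other direction, the GC box GGGCGGG was in 22.2% of the day 3-only windows, 45% of those open in all 10 lists and 25.7% of all windows. The median GC content was 54.0% in the day 3-only windows, 60.3% in the windows open in all 10 lists and 53.0% in all windows. Base composition thus lay near that of all windows and differed from that of the windows open in all 10 lists, and its part in the difference from the last was not tested. Letters searched for Tead proteins (GGAATG, 14.8%), Runx proteins (TGTGGT, 15.8%) and C/EBP proteins (TTGCNNAA, 8.87%) were in shares near those of all windows, at 14.6%, 16.6% and 10.9%. A match describes letters, not binding, and intervals cover counting error only. The intervals were not adjusted for the number of motifs searched.

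The 4 strongest windows that lie whole inside a day 3-only region, hold TGACTCA or TGAGTCA and belong to a gene with a name are shown first, each read 5′ to 3′ on the strand of its gene, with positions counted from the gene start as 0. Capitals mark TGACTCA or its reverse complement TGAGTCA. Sprr1a, a small proline-rich protein known from stressed epithelia and injured heart muscle, has its window at chr3:92485832-92486131 on the minus strand and carries 2 copies, at −146 and −116. Adam1b, known as a sperm surface metalloprotease gene, lies at chr5:121503386-121503685 (minus strand). Cldn4, a tight junction claudin of epithelia, lies at chr5:134946885-134947184 (minus strand) and carries 2 copies. Sbsn, suprabasin of stratified epithelia, lies at chr7:30751221-30751520 (plus strand).
Sprr1a: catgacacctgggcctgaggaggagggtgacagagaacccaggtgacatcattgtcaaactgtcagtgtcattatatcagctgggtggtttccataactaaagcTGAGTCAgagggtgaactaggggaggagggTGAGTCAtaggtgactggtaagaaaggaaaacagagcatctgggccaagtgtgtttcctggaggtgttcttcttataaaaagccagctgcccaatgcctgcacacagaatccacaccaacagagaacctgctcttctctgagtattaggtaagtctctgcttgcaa
Adam1b: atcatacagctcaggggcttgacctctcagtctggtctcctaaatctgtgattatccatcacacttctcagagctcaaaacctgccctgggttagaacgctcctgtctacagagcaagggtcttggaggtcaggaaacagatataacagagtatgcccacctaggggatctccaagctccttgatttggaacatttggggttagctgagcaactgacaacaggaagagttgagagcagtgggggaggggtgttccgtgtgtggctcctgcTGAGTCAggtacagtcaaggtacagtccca
Cldn4: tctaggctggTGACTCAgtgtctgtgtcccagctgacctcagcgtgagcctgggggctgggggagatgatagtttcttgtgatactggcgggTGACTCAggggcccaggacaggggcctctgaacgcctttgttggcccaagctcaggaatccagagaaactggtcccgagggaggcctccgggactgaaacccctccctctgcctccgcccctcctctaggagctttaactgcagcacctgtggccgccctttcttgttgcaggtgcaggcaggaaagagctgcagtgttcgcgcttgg
Sbsn: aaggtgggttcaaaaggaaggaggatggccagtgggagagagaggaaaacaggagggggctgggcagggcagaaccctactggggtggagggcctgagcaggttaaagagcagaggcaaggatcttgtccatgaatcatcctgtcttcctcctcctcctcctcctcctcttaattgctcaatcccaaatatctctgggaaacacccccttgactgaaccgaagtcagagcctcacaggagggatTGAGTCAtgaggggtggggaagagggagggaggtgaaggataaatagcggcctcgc

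Sprr1a was at 2.79 and 2.66 CPM at day 3, against 3.05 and 3.14 CPM at day 7 and 0 to 0.96 CPM in the 6 other libraries. Its RNA was thus as high at day 7, where no peak was called in this region (day 3 against the mean of the other 4 groups: log2 difference 3.58 ± 1.58, adjusted p = 0.16). Sbsn was at 3.62 and 2.77 CPM at day 3, against 0 to 3.16 CPM in the 8 other libraries (adjusted p = 0.63). Adam1b and Cldn4 had no counts at day 3 and were at most at 0.804 and 1.72 CPM elsewhere, too few for a test.

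Of the 37 tested genes of these windows, 2 were higher and 2 lower at day 3 than in the mean of the other 4 groups by edgeR's quasi-likelihood test at an adjusted p under 0.05, a rule that called 9.48% of the 14968 genes tested higher and 4.74% lower. Their windows follow, since here a region at a RefSeq start of the gene can be set beside a change in the gene's own RNA. Capitals again mark TGACTCA or TGAGTCA and, in Lats2, a match to the letters searched for the Irf family. Chrna1 (muscle acetylcholine receptor subunit; chr2:73580289-73580588, minus strand) and Epsti1 (an interferon-induced gene; chr14:77903989-77904288, plus strand) were the ones that rose. Adgrg1 (an adhesion G protein-coupled receptor; chr8:94976859-94977158, plus strand) and Lats2 (a kinase of the Hippo pathway, which restrains Yap; chr14:57734369-57734668, minus strand) were the ones that fell. The windows of Chrna1 and Epsti1 stand at the upstream end of the gene's span, while those of Adgrg1 and Lats2 stand at other RefSeq starts, 2358 and 23970 bases inside the span.
Chrna1: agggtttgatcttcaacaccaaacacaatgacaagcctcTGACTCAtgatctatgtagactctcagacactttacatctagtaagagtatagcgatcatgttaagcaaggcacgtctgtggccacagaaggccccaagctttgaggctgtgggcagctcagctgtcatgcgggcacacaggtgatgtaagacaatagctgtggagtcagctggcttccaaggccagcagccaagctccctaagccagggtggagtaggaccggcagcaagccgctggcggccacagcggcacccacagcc
Epsti1: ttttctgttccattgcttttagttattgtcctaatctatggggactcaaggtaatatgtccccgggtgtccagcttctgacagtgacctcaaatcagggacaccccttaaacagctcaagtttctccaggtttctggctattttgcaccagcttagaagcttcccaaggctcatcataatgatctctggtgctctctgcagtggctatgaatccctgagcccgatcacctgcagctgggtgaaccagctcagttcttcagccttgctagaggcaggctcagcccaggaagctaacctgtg
Adgrg1: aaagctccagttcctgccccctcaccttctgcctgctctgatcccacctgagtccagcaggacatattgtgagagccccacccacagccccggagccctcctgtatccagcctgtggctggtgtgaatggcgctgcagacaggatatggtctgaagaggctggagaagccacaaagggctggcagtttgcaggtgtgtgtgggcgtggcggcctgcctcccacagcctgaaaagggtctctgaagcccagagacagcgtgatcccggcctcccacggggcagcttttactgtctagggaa
Lats2: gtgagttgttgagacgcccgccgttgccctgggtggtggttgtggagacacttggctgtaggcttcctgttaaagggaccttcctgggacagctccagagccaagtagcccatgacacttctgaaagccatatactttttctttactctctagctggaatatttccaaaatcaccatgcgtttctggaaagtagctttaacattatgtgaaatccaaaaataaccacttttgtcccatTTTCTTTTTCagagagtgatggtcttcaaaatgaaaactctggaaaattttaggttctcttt

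Chrna1 was at 3.32 and 2.88 CPM at day 3, against 0 to 1.07 CPM in the 8 other libraries (adjusted p = 0.048), and its call was lost whichever library was left out, with adjusted p between 0.059 and 0.23. Epsti1 was at 4.45 and 8.98 CPM at day 3, against 0 to 3.25 CPM elsewhere (log2 difference 4.64 ± 1.20, adjusted p = 0.025; adjusted p = 0.24 without day 3 replicate 2). Lats2 was at 20.6 and 34.0 CPM at day 3, against 45 to 91.2 CPM in all 8 others (log2 difference −1.10 ± 0.281, adjusted p = 0.021; adjusted p = 0.18 without day 3 replicate 1). Adgrg1 is described with the genes that fell.

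At day 3 the regions were weak peaks. In replicate 1 their median −log10 q was 5.08 and in replicate 2 it was 5.96, against 17.9 and 17.3 in the other regions that both day 3 lists hold. These medians stand at percentile 25.7 and 30.5 of their own lists. Median fold enrichment over local background, as the peak caller gave it, was 3.84 and 3.88, against 7.44 and 6.73 in the other regions. The highest −log10 q was 76.4 in replicate 1 and 81.7 in replicate 2. The lower of the 2 values of −log10 q was 5 or more in 3407 regions (43.7%), 10 or more in 910 and 20 or more in 147. These strengths helped to choose the regions and are a description.

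**Figure D1:**
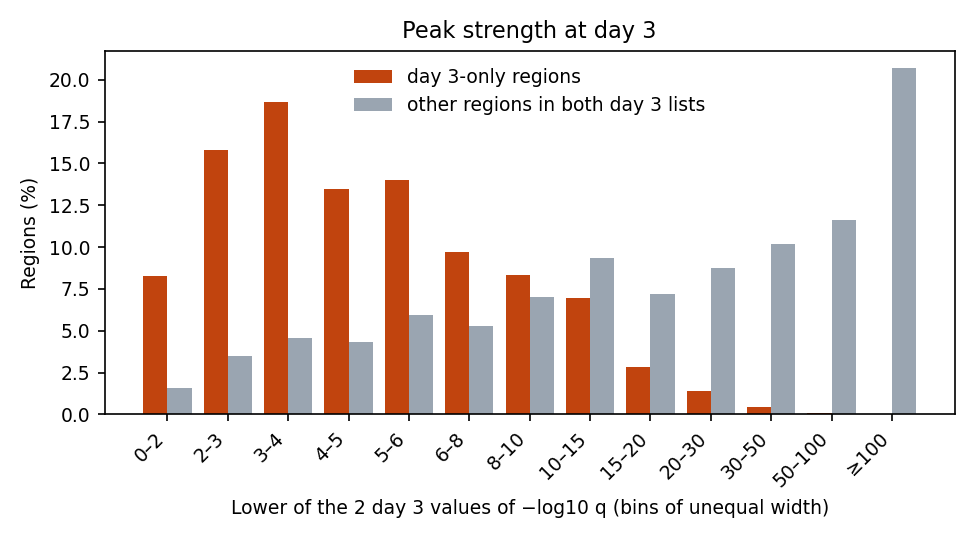
Share of regions (y axis, percent) by the lower of the 2 day 3 values of −log10 q (x axis, bins of unequal width) for the 7793 day 3-only regions and for the other regions in both day 3 lists. The day 3-only regions crowd at the low end, with 18.7% between 3 and 4, where 4.55% of the other regions lie, while 20.7% of the other regions and none of the day 3-only regions reach 100.

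In 7705 of the regions each day 3 list held 1 peak, and there the rule itself makes the 2 peaks overlap. Their closeness is thus a description. The summits of the 2 peaks were a median 107 bases apart, 47.8% of them within 100 bases, and in 95.2% of regions the peaks overlapped over most of the shorter one. Across regions, fold enrichment in the 2 libraries had a Pearson correlation of 0.641 on the log2 scale and a Spearman correlation of 0.563, over 7793 regions that share their libraries and were chosen for a peak in both. The regions had a median width of 827 bases, near the 765 bases of regions open at day 7 only and 866 of those open in uninjured hearts only. Regions held by more lists were wider, with 1237 bases for the 2048 open at days 3 and 7 only. For the 38922 regions open in all 10 lists the median was 2759 bases. A region joins the peaks of every list that holds it, so these widths are a description.

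The edge of the rule was soft on the side of day 7. Another 5778 regions had a peak in both day 3 lists and in exactly 1 other list, and of these 40.9% (2364) had it in day 7 replicate 1 and 24.7% (1427) in day 7 replicate 2, while each of the 6 other libraries accounted for 3.17% to 11.5%. The extra peaks were weak, with a median −log10 q of 3.69 in day 7 replicate 1 and 3.77 in day 7 replicate 2. The day 7 lists were also the longest outside day 3, with 93661 and 88250 peaks, against at most 79654 in the 6 others. The part of list length in these shares was not tested. Just inside the rule, the weakest member (chr1:13203560-13203942) had a −log10 q of 6.53 in replicate 1 and 1.37 in replicate 2. A further 2048 regions had a peak in both day 3 and both day 7 lists and in no other list.

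The number of regions depended on the length of the lists. As deposited, 7793 regions were held by both day 3 lists alone, against 697 by both uninjured lists alone, 663 for day 7, 156 for week 2 and 179 for week 4. With every list cut to its 63882 strongest peaks, the length of the shortest list, the count was 2567 for day 3 and 1964 for the uninjured hearts, 303 for day 7, 140 for week 2 and 420 for week 4. Only 1130 of the 7793 regions (14.5%) met the rule in both ways, and they made up 44.0% of the 2567. With the day 3 lists cut to the 93661 peaks of the longest other list, 5403 regions were day 3-only. When 1 list was left out the count lay between 7990 and 18037, the highest being without day 3 replicate 1 and the next, 14503, without day 3 replicate 2, since then a peak in 1 list was enough.

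**Figure D2:**
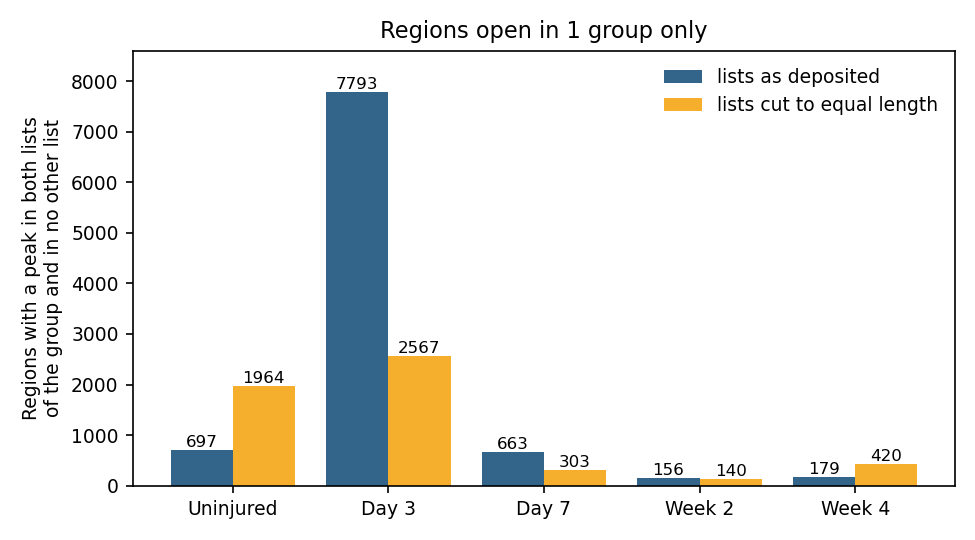
Number of regions with a peak in both lists of 1 group and in none of the 8 other lists (y axis) for the 5 groups in order of time (x axis), with lists as deposited and with all lists cut to 63882 peaks. Day 3 has the highest bar both ways, at 7793 and 2567, but the distance to the uninjured group shrinks to 2567 against 1964 once the lists are equally long.

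The regions lay inside and between genes, seldom at gene ends. Of the 7793, 51.8% overlapped a gene span, 38.8% lay within 100 kb of one and 9.38% lay farther away. Within 1 kb of an end of a gene span there were 498 regions (6.39%), against 8.20% of the regions open at days 3 and 7 only, 5.28% of those open at day 7 only, 3.73% of those open in uninjured hearts only and 34.1% of those open in all 10 lists. The count table gives no strand, so that starts and ends of genes could not be separated. The median distance to the nearest gene end was 20201 bases, against 8722 bases for regions open in all 10 lists, and the nearest region open in all 10 lists was a median 14143 bases away. Neighbouring day 3-only regions were a median 60970 bases apart, and 14.7% had another within 10 kb. Chromosomes differed little: the regions made up 8.13% (chromosome 7) to 10.8% (chromosome 19) of the regions that both day 3 lists hold there. One of the densest megabases, on chromosome 2 between positions 102000001 and 103000000, held 16 day 3-only regions among 130 regions and contains Slc1a2 and Cd44.

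**Figure D3:**
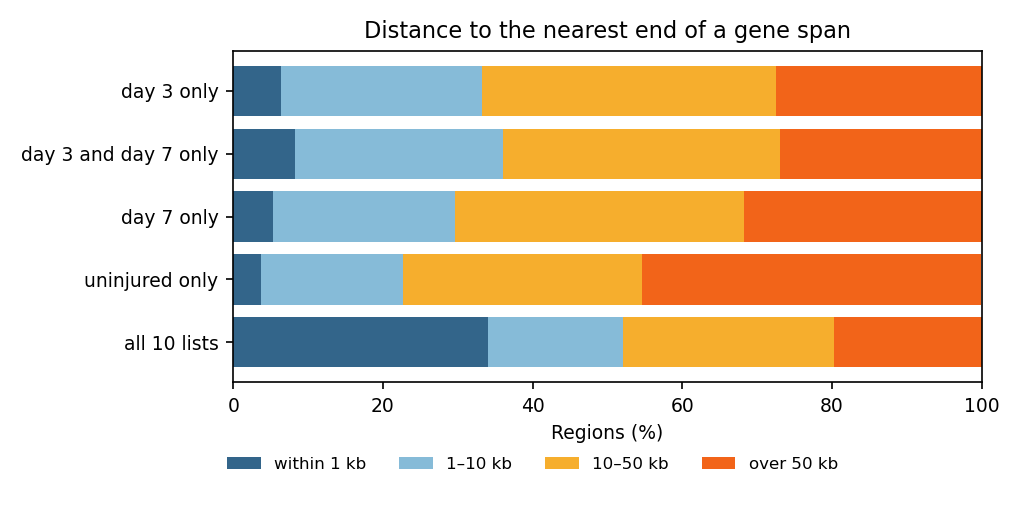
Share of regions (x axis, percent) by distance to the nearest end of a gene span, for regions open at day 3 only, at days 3 and 7 only, at day 7 only, in uninjured hearts only and in all 10 lists. The part within 1 kb is 6.39% for day 3-only regions and 34.1% for regions open in all 10 lists, while 27.5% of the day 3-only regions lie over 50 kb from any gene end.

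The 10 strongest regions, ranked by the lower of their 2 values of −log10 q, had values from 44.9 to 81.7 over both libraries and folds of 12 to 19. The first, chr19:41454461-41455895, lay 26742 bases from Lcor, a co-repressor of nuclear receptors, with −log10 q of 60.2 and 81.7. The third, chr1:125529626-125530989, had 76.4 and 57.0 and lay 29606 bases from Slc35f5, a transporter gene. The sixth, chr10:27249367-27250642, lay inside Lama2, a laminin chain of basement membranes, which had 6 day 3-only regions linked to it. The tenth, chr12:104222878-104225021, lay 1749 bases from Serpina3f, a serine protease inhibitor gene. Each of the 10 regions was 4306 bases or more from the nearest region open in all 10 lists, and 2 of them were more than 100 kb from any gene span.

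The nearest genes of these strongest regions did not move as one. Lama2 fell, with 306 and 146 CPM at day 3, against 270 to 888 CPM in the 8 other libraries (log2 difference −1.03 ± 0.297, adjusted p = 0.039), a call lost when 1 of 5 libraries was left out, at most at adjusted p = 0.37 without day 3 replicate 2. Serpina3f was at 21.9 and 26.9 CPM at day 3, against 0 to 9.2 CPM in all others, and missed the threshold (log2 difference 3.0 ± 1.04, adjusted p = 0.087). Lcor, Ctnna1, Slc35f5, Bms1, Ier5l and Jak1 had adjusted p from 0.27 (Slc35f5) to 0.97 (Ier5l). Ctnna1, for example, which encodes alpha-catenin, was at 302 and 299 CPM at day 3, against 296 to 362 CPM elsewhere.

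Linking each region to the nearest gene span within 100 kb joined 7062 regions (90.6%) to 4786 genes, of which 3355 had 1 region and 83 had 5 or more. Of these genes 712 had no counts in any library, and 3548 had enough counts for a test. The link is by distance alone. At day 3 against the mean of the other 4 groups, 267 of the 3548 linked genes (7.53%) were higher and 205 (5.78%) lower, against 9.48% and 4.74% of all genes tested. The median log2 difference was −0.12 over the linked genes and −0.01 over all genes tested. The share called higher was thus below the background and the share called lower above it, by a small margin in both cases. Without day 3 replicate 2 the share of linked genes called higher was 2.04% and lower 1.16%, where 2.62% and 0.813% of all genes were, and without day 3 replicate 1 the share called higher was 4.42%, where 5.62% of all genes were. Both day 3 libraries stood above all 8 others for 327 linked genes (9.22%; 11.8% of all genes tested) and below all 8 others for 277 (7.81%; 6.36%).

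At day 3 against uninjured hearts, 224 linked genes (6.31%) were higher and 224 (6.31%) lower, where 7.39% and 4.40% of all genes were. At week 4 against day 3, 227 (6.40%) were higher and 225 (6.34%) lower, where 5.84% and 7.52% were. At day 7 against day 3, 33 (0.930%) were higher and 16 (0.451%) lower, where 0.822% and 0.555% of all genes were (1.38% in either direction). Without day 3 replicate 2 the shares of linked genes higher and lower were 2.61% and 1.61% at day 3 against uninjured hearts (all genes, 3.08% and 1.15%), 1.96% and 2.34% at week 4 against day 3 (all genes, 1.66% and 2.66%), and 0.0806% and 0.107% at day 7 against day 3 (all genes, 0.119% and 0.0876%). Leaving out a library of the other group compared also moved shares by over 1.5 times, within the ranges given under the processing alternatives. These contrasts share the day 3 libraries. For genes linked to regions open at days 3 and 7 only, 8.72% were higher and 6.09% lower at day 3 against the mean of the other 4 groups. For genes linked to regions open in all 10 lists the shares were 10.1% and 5.48%.

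Gene length moved with these shares. Linked genes that were tested had a median span of 59019 bases, against 21859 bases for all genes tested, and day 3-only regions were linked to 7.43% of the shortest of 4 equal classes of gene length and 50.1% of the longest. Long genes were also called higher at day 3 less often, at 4.20% in the longest class and 11.3% in the shortest. Within classes the linked genes had shares near those of all genes, except for lower genes in the shortest class. The shares were 12.2% against 11.3% higher in the shortest class, 15.2% against 13.0% in the second, 9.08% against 9.46% in the third and 3.95% against 4.20% in the longest. For lower genes the shares were 6.47% against 3.61% in the shortest class, 3.62% against 3.87%, 4.14% against 4.41%, and 7.04% against 7.08% in the longest. Genes with more regions showed no higher share: 7.63% of 2399 genes with 1 region were higher at day 3, 7.74% of those with 2 and 7.43% of those with 3 or 4, and of the 77 tested genes with 5 or more, 2 were higher and 8 lower.

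**Figure D4:**
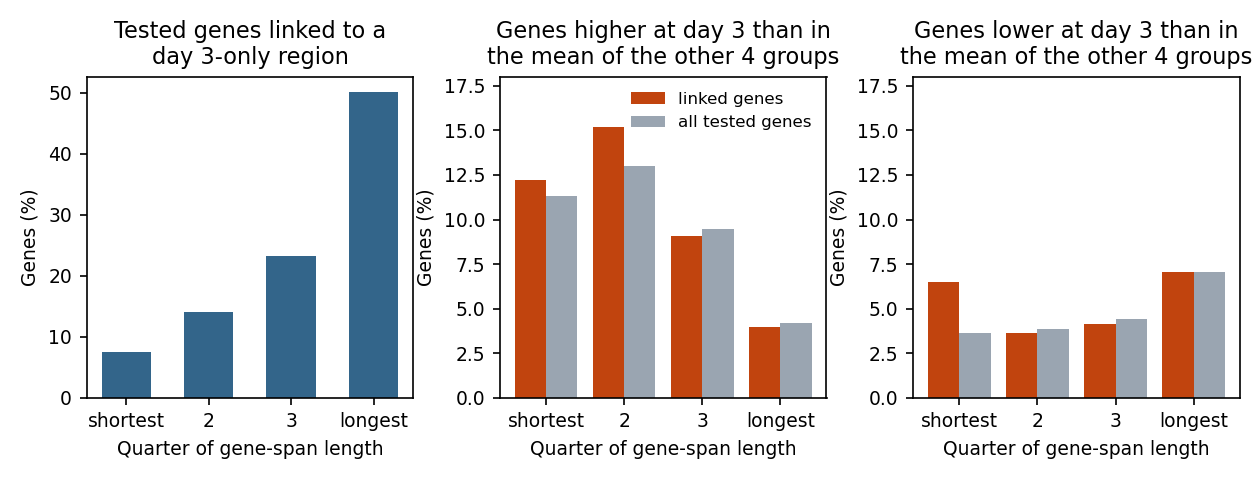
Left, share of tested genes linked to a day 3-only region (y axis, percent) by class of gene-span length, from short to long (x axis). Middle and right, share of linked genes and of all tested genes that were higher or lower at day 3 than in the mean of the other 4 groups (edgeR adjusted p under 0.05). The linked share climbs to 50.1% in the longest class, where 3.95% of linked genes and 4.20% of all genes were higher at day 3.

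Among the linked genes with the largest changes, those of cell division led the rises. By rule the 12 largest rises were named among 181 linked genes that passed, averaged at least 2 in log2 CPM and had both day 3 libraries above all 8 others. All but Il1rl1 and BC030867 of these 12 act in mitosis or the cell cycle. Tpx2, which builds spindle microtubules around chromatin and held a day 3-only region inside it (chr2:152862541-152863610), was at 12.9 and 3.38 CPM in uninjured hearts, 151 and 200 CPM at day 3, 18.4 and 22.4 at day 7, 5.11 and 7.76 at week 2 and 3.59 and 6.24 at week 4. Only day 3 was high, and Tpx2 fell again by day 7 (day 3 against the mean of the other 4 groups: log2 difference 4.36 ± 0.341, adjusted p = 1.7e-05; day 7 minus day 3: −3.10, adjusted p = 0.019). Stil, needed for centriole duplication, was at 31 and 31.1 CPM at day 3, against 0 to 5.07 CPM in the 8 other libraries (log2 difference 5.70 ± 0.680, adjusted p = 0.00022). Mki67, the gene of the proliferation antigen Ki-67, had 2 regions, 5248 and 32749 bases away, and was at 113 and 115 CPM at day 3, against 0.0974 to 50.2 CPM elsewhere (log2 difference 4.95 ± 0.865, adjusted p = 0.0092).

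Cenpm (a centromere protein; log2 difference 4.65), Cdkn3 (a phosphatase that acts on Cdk proteins; 4.42), Melk (a mitotic kinase; 4.37) and Ckap2l (a spindle protein; 4.44) rose likewise, each with 1 region and with both day 3 libraries above all others. The kinesin Kif11 (55.3 and 109 CPM at day 3, against 0 to 23.0) and the spindle checkpoint kinase Ttk (19.6 and 45 CPM, against 0 to 17.5) rose at adjusted p = 0.048 and 0.024. Ska1, of the kinetochore, was at 20.8 and 18.6 CPM at day 3, against 0 to 4.52 CPM (adjusted p = 0.001), and BC030867 at 23.5 and 17.2 CPM, against 0 to 7.78 CPM (adjusted p = 0.0044). Leaving out 1 library ended the call for Kif11 with 9 of the 10 libraries (adjusted p up to 0.37), for Ttk with 8 (up to 0.18), for Ckap2l with 5 (up to 0.11) and for Mki67 with 4, namely both day 3 and both week 4 libraries (up to 0.11). The other 8 of the 12 kept theirs. On the list of 36 cell cycle and DNA replication genes, 9 were linked to day 3-only regions and all 9 rose, but so did 34 of all 36, and 25% of the list was linked, against 23.7% of all genes tested.

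Cytokine genes and the wound matrix also stood beside these regions. Tnc encodes tenascin-C, a matrix protein made transiently in wounds, and had 4 day 3-only regions among its 32 linked regions. The strongest of the 4 lay 77121 bases away at chr4:64124136-64125231, with −log10 q of 41.2 and 41.4, and another lay inside the gene at chr4:64016075-64019602. Tnc RNA was at 7.14 and 1.55 CPM in uninjured hearts, 851 and 1230 CPM at day 3, 247 and 265 at day 7, 89.4 and 72.9 at week 2 and 71.8 and 78.6 at week 4. It was highest at day 3 and stayed above the uninjured hearts at each later time (log2 difference 4.35 ± 0.319, adjusted p = 4.4e-05). Spp1, the secreted phosphoprotein osteopontin, was at 33.6 and 22 CPM in uninjured hearts, 1000 and 1690 CPM at day 3, 579 and 670 at day 7, 267 and 210 at week 2 and 220 and 214 at week 4, with 1 region 35335 bases away (log2 difference 2.96 ± 0.189, adjusted p = 3.7e-06). Il33, an alarmin cytokine, had 3 regions 12604 to 42051 bases away and was at 1280 and 1010 CPM at day 3, against 272 to 538 CPM in all 8 others (log2 difference 1.53 ± 0.176, adjusted p = 0.00018), and it fell again by day 7 (day 7 minus day 3: −1.40, adjusted p = 0.018).

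The receptor of Il33, Il1rl1, held a region inside it (chr1:40441538-40442638) and had no counts in both uninjured libraries, 12.3 and 8.81 CPM at day 3 and 0 to 7.76 CPM at later times (adjusted p = 0.0018). Cxcl5, a chemokine that draws neutrophils, was at 319 and 214 CPM at day 3, against 4.21 to 115 CPM elsewhere (log2 difference 3.29 ± 0.486, adjusted p = 0.003). Of 12 linked cytokine and receptor genes tested, 8 rose and none fell, while over the whole list 17 of 33 rose and none fell. Among 13 linked matrix genes 4 rose and none fell, against 13 that rose and 4 that fell on the list of 41. They include Ccn4, a matricellular protein, at 205 and 338 CPM at day 3, against 2.67 to 360 CPM elsewhere (log2 difference 2.12 ± 0.270, adjusted p = 0.00048), and periostin, Postn, at 8280 and 7630 CPM at day 3, against 431 to 12900 CPM (1.35 ± 0.218, adjusted p = 0.0015). At day 7, where their regions held no peak, Postn was at 11800 and 12900 CPM and Ccn4 at 290 and 360 CPM, and neither difference from day 3 passed (adjusted p = 0.34 and 0.8). Col5a3 was linked too and did not pass (log2 difference 0.92, adjusted p = 0.14).

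Aldh1a2, which makes retinoic acid and marks activated epicardium, had 3 regions 29909 to 59399 bases from it. It was at 58.2 and 53.3 CPM in uninjured hearts, 244 and 144 CPM at day 3, 25.3 and 22.1 at day 7, 17.9 and 12.9 at week 2 and 22.3 and 12.5 at week 4 (log2 difference 2.99 ± 0.233, adjusted p = 1e-05; day 7 minus day 3: −3.03, adjusted p = 0.0064). The 9 epicardial and mesothelial markers, of which Aldh1a2 is one, summed to 250 and 179 CPM at day 3, against 20.5 to 175 CPM in the other libraries, with Muc16 at 0 at day 3. Aldh1a2 made up most of the day 3 sums: the other 8 markers summed to 6.11 and 35 CPM at day 3, against 3.53 to 157 CPM in the other libraries, and of the 9 only Aldh1a2 rose and none fell. Wt1, another marker of that list, had 5 day 3-only regions among its 12 linked regions, while its RNA was at 0.237 and 2.38 CPM at day 3, against 2.04 to 8.83 CPM elsewhere (log2 difference −2.04 ± 1.03, adjusted p = 0.22). In bulk samples fewer cells of a type and less RNA per cell cannot be told apart.

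**Figure D5:**
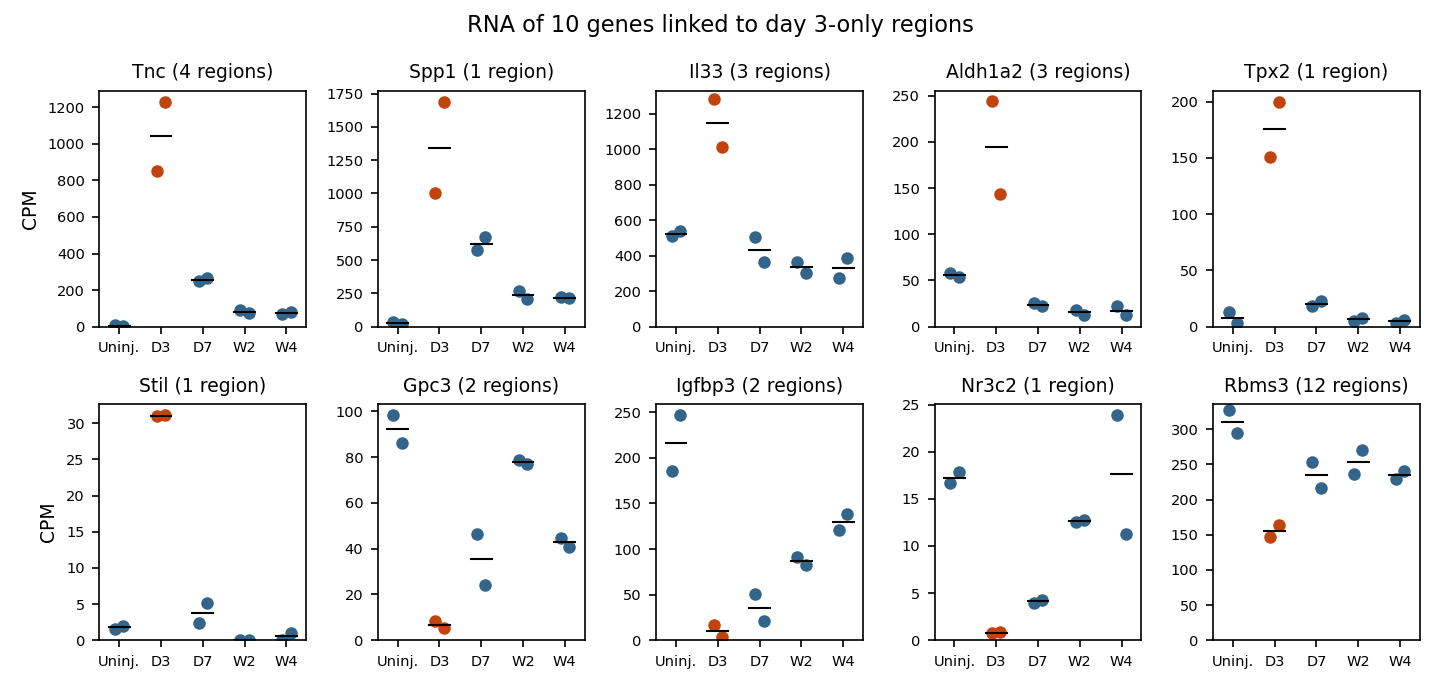
RNA level in CPM (y axis, from 0) of 10 genes linked to day 3-only regions in the 2 libraries of each group, in order of time (x axis); points are libraries, orange at day 3, and bars are means. Tnc, Spp1, Il33, Aldh1a2, Tpx2 and Stil have both day 3 libraries above all others, and Gpc3, Igfbp3, Nr3c2 and Rbms3 have both below all others. The 10 were picked from the genes named in the text and do not stand for all linked genes. Of the linked genes tested, 9.22% had both above and 7.81% both below, against 11.8% and 6.36% of all genes tested.

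A region that opened at day 3 also stood beside genes that fell. By rule the 8 largest falls were named among 129 linked genes with both day 3 libraries below all 8 others. Adgrg1, which had a region at a RefSeq start inside its span (shown above), had no counts in either day 3 library, against 1.01 to 36.3 CPM in all 8 others. Set against a floor of 3 counts per library, it was at least 56.0-fold lower at day 3 than in the mean of the other 4 groups (adjusted p = 0.0024). Nr3c2, the mineralocorticoid receptor, was at 16.7 and 17.8 CPM in uninjured hearts, 0.772 and 0.831 CPM at day 3, 3.99 and 4.28 at day 7, 12.5 and 12.7 at week 2 and 23.9 and 11.3 at week 4 (log2 difference −3.79 ± 0.598, adjusted p = 0.0013). Btnl9, a butyrophilin-like gene (log2 difference −6.05, adjusted p = 0.0048), Rapgef3, the cAMP-activated exchange factor Epac1 (−5.29, adjusted p = 0.0058), Sox6, a transcription factor (−5.27, adjusted p = 0.0083), and Kcnma1, a calcium-activated potassium channel (−5.02, adjusted p = 0.0088), were at 0 to 0.416 CPM at day 3, against 1.66 to 19.1 CPM in all other libraries.

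Afap1l1 (an actin-binding adaptor; 1.13 and 0.166 CPM at day 3, against 4.0 to 38.9 CPM, adjusted p = 0.0063) and Gja5 (connexin 40, a gap junction protein of arterial endothelium and atrial muscle; 2.37 and 0 CPM, against 11 to 46.1 CPM, adjusted p = 0.041) completed the 8. The calls of Rapgef3 and Afap1l1 were lost without day 3 replicate 2, at adjusted p = 0.074 and 0.057, and that of Gja5 without any 1 of the 8 libraries that are not of day 3, at up to adjusted p = 0.13. The 16 endothelial markers summed to 485 and 356 CPM at day 3, against 810 to 1550 CPM in the other libraries, with none at 0, and the 12 pericyte and smooth muscle markers to 274 and 198 CPM, against 469 to 1270 CPM. Of 6 linked endothelial markers all 6 fell, as did 14 of all 16: Pecam1, with 2 regions inside it, was at 24.6 and 18.1 CPM at day 3, against 50 to 168 CPM (log2 difference −1.99 ± 0.253, adjusted p = 0.00033), and Kdr, Flt1 and Cldn5 fell too (log2 differences −3.05, −2.91 and −2.73). The part of these cells in the falls of Gja5 or Btnl9 was not tested. Of 2 linked pericyte markers, Rgs5 fell (log2 difference −2.75, adjusted p = 0.034; lost without any of 8 libraries, at up to adjusted p = 0.24) and Notch3 did not pass (adjusted p = 0.66).

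Genes of the resting fibroblast were among those that fell. Of 8 linked genes on the list of resident fibroblast genes 4 fell and none rose, while 12 of 38 fell and 1 rose over the list. Gpc3, a heparan sulfate proteoglycan, had 2 regions and was at 98.5 and 86.2 CPM in uninjured hearts, 8.25 and 5.27 CPM at day 3, 46.3 and 24.3 at day 7, 78.8 and 76.8 at week 2 and 44.7 and 40.7 at week 4. It was higher again at day 7 (day 3 against the mean of the other 4 groups: log2 difference −3.09 ± 0.336, adjusted p = 0.00012; day 7 minus day 3: 2.39, adjusted p = 0.011). Igfbp3, which binds insulin-like growth factors, was at 16.9 and 3.71 CPM at day 3, against 21.2 to 247 CPM in all 8 others (log2 difference −3.23 ± 0.585, adjusted p = 0.0064), and one of its 2 regions, chr11:7242622-7243639, was among the stronger ones, with −log10 q of 17 and 24.1. Gata4, a heart transcription factor, fell with 13.9 and 9.92 CPM at day 3, against 12.2 to 94.5 CPM (log2 difference −1.28, adjusted p = 0.026; lost without day 3 replicate 1, day 3 replicate 2 or week 4 replicate 1, at up to adjusted p = 0.25).

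Of the 10 genes with the most day 3-only regions, 1 rose, 3 fell and 6 did not pass. All 10 belong to the longest class of gene length, where 4.20% of all genes tested were higher and 7.08% lower. Over all classes 9.48% were higher and 4.74% lower. Npas3, Auts2 and Rbms3 had 12 regions each, Ltbp1 had 10, Ptprm and Slc1a2 had 9, and Atrnl1, Thsd4, Pard3b and the predicted gene Gm20388 had 8. Rbms3, an RNA-binding protein gene, fell: it was at 147 and 164 CPM at day 3, against 217 to 327 CPM in all 8 others (log2 difference −0.73 ± 0.162, adjusted p = 0.01). Ptprm, an adhesive receptor phosphatase, and Pard3b, a cell polarity gene, fell as well (log2 differences −1.30 and −1.33, adjusted p = 0.012 and 0.0051). The calls of Rbms3, Ptprm and Pard3b were lost without at least 1 of the day 3 libraries, at up to adjusted p = 0.1, 0.11 and 0.093. Slc1a2, a glutamate transporter, was the one that rose: it was at 15.6 and 7.10 CPM at day 3, against 0 to 4.28 CPM in all 8 others (log2 difference 3.95 ± 1.22, adjusted p = 0.048), and its call was lost without any of 7 libraries, at up to adjusted p = 0.26. Its 9 regions were 32.1% of the 28 regions linked to it, against 9 of 75 for Ptprm and 12 of 133 for Rbms3. Next to it, Cd44, a hyaluronan receptor, held 2 regions and rose, with 205 and 229 CPM at day 3, against 49.7 to 167 CPM in all 8 others (log2 difference 1.36 ± 0.150, adjusted p = 0.00013). Npas3, Auts2, Ltbp1, Atrnl1, Thsd4 and Gm20388 had adjusted p of 0.5 or more. Ltbp1, which stores latent TGF-beta in the matrix, was at 131 and 96.8 CPM at day 3, against 88.6 to 164 CPM.

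Other lists were linked to different degrees. Of 31 integrin and adhesion genes tested, 20 (64.5%) were linked, of 37 growth factor and receptor genes 18 (48.6%), and of 24 glycolysis genes 9 (37.5%), where 23.7% of all genes tested were. These shares were not matched for gene length. Among all genes tested 7.43% of the shortest class and 50.1% of the longest were linked, and the part of length in the list shares was not tested. Among linked adhesion genes 2 rose and 4 fell (4 and 6 of all 31), with Cdh11, a mesenchymal cadherin, among the falls (log2 difference −1.31, adjusted p = 0.03; lost without day 3 replicate 2 or day 7 replicate 1, at up to adjusted p = 0.31) and Itga8 and Itga3 not passing (adjusted p = 0.11 and 0.18). Among linked growth factor genes 2 rose and 4 fell (2 and 9 of all 37), with Fgfr2 (5 regions; adjusted p = 0.16) and Met (adjusted p = 0.29) not passing. Linked TGF-beta pathway genes, 10 of 34 tested, held 25 regions and none of them passed in either direction: Inhba was at 38.7 and 116 CPM at day 3, against 30.4 to 74.0 CPM, and Bambi (adjusted p = 0.086), Smad7 (0.39) and Tgfbr3 (0.63) did not pass. Over that whole list none rose and 6 fell. Eno1 and Pgam1, enzymes of glycolysis, rose by 1.40 ± 0.219 and 0.84 ± 0.145 on the log2 scale (adjusted p = 0.0013 and 0.0024), both calls lost without day 3 replicate 2, at adjusted p = 0.066 and 0.1, and Ndrg1 (adjusted p = 0.07) and Hk2 (0.24) did not pass.

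Contractile genes were linked least among the lists of over 25 tested genes, at 3 of 30 (10.0%), and over the whole list 13 rose and none fell. Here too the part of gene length was not tested. Tpm1, a tropomyosin, rose with 472 and 656 CPM at day 3, against 249 to 476 CPM (log2 difference 0.74 ± 0.169, adjusted p = 0.012; adjusted p = 0.33 without day 3 replicate 2). Palld and Pdlim5 did not pass (adjusted p = 0.16 and 0.73). Of 25 heat shock and stress genes 3 were linked, and Atf3, Bag3 and Txnrd1 did not pass (adjusted p = 0.11, 0.7 and 0.78), while over the whole list 6 rose and 3 fell. The 24 macrophage and monocyte markers summed to 833 and 1380 CPM at day 3, against 87.7 to 3800 CPM in the other libraries, where both uninjured libraries were under 100 CPM and both day 7 libraries above 2000 CPM, and none of them was at 0 at day 3. Of the 24, 9 rose and none fell. Of 5 linked ones Fcgr3, with 3 regions, rose (31.1 and 51.6 CPM at day 3, against 2.73 to 115 CPM; adjusted p = 0.038, lost without 6 of the 10 libraries, at up to adjusted p = 0.56), and Itgam, Fcgr1 and C1qb did not pass (adjusted p = 0.13, 0.1 and 0.29). The part of macrophage RNA in the values at day 3 was not tested. The 12 neutrophil markers summed to 15.9 and 20.2 CPM at day 3, against 1.02 to 31.3 CPM, with Ly6g, Elane and Ngp at 0. None of the 7 linked of 16 cardiomyocyte markers passed, nor either linked Schwann cell marker tested, and the linked neutrophil marker tested, Csf3r, did not (adjusted p = 0.11).

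Factors that bind the motifs searched were measured too. Of 60 tested, 5 were higher at day 3 than in the mean of the other 4 groups and 10 lower. Of all genes tested 9.48% were higher and 4.74% lower. Within AP-1 the members went apart: Fosl1 (Fra-1) rose, with 25.4 and 21.8 CPM at day 3, against 0.426 to 8.05 CPM in all 8 others (log2 difference 3.16 ± 0.577, adjusted p = 0.0033), while Jun, Jund, Fosb and Fos fell (log2 differences −1.61, −1.15, −1.01 and −0.94). Fos was at 4230 and 2600 CPM at day 3, against 4500 to 9360 CPM in all 8 others. None of Fosl1, Jun, Jund, Fosb and Fos had a day 3-only region linked to it. Irf7 of the interferon response rose (log2 difference 2.04, adjusted p = 0.00024), as did E2f8 (adjusted p = 0.033) and Tead1, the last with 2 regions (0.83, adjusted p = 0.027). Klf4 (−1.24), Mef2c (−1.24), Ets1 (−0.87, 3 regions) and Wwtr1 (−0.81), the Hippo pathway co-activator Taz, fell with at least 1 region each, and Maff and Mef2a fell with none. Runx2 had 5 regions and was at 19.1 and 19.9 CPM at day 3, against 1.71 to 21.7 CPM (adjusted p = 0.47), and Runx1 had 2, at 72.8 and 69.6 CPM, against 7.50 to 142 CPM (adjusted p = 0.56). Without day 3 replicate 2 the calls of Jun, Jund, Fosb, Fos, Maff, Mef2a, Klf4, Ets1, Wwtr1, Tead1 and E2f8 were lost, at adjusted p between 0.078 and 0.4, and those of Tead1, E2f8, Fosb, Ets1 and Wwtr1 were also lost without other single libraries.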

How the data were processed

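Peak lists of 10 ATAC-seq libraries and a gene table of 10 RNA-seq libraries were used, 2 of each per group. The submitters' processing notes name Trim Galore 0.6, FastQC, STAR 2.5.3a, DESeq2, Bowtie2 2.3 and MACS2, with builds mm10 and GRCm38. The deposited lists hold 1 set of peaks per library, with the authors' fold enrichment, −log10 p, −log10 q and display score for each peak. The deposited expected counts per gene are not whole numbers, and no source used here names the counting program or its use of strand, so that reads of overlapping genes may be shared. They were rounded to whole numbers, scaled by TMM, filtered by group and tested with edgeR 4.0.16 (quasi-likelihood, robust, all 10 libraries in 1 fit), with Benjamini-Hochberg adjustment over the 14968 genes tested and a threshold of 0.05. SE is the size of the log2 difference divided by the square root of the quasi-likelihood F statistic, and so is approximate for genes with few counts. DESeq2 1.42.0 was an alternative. Scripts were tested on simulated data.

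Peaks were merged over 20 chromosomes and linked to the nearest gene span of the deposited gene table within 100 kb. No genome was at hand, so the motif search around peak summits was replaced, after the data were seen, by RefSeq promoter windows of 300 bases, which matched 16598 of 25475 gene symbols. Named were the 10 strongest regions, the 12 largest rises and 8 largest falls among linked genes whose day 3 libraries lay beyond all 8 others, the 10 genes with most regions, up to 4 linked genes per list by size of change, and the factors of the motifs. Genes at the promoters and at the strongest regions were chosen after their values were seen. The regions and gene lists were chosen with earlier results of these data known. Day 3, day 7 and week 4 each mix libraries with and without Y-linked RNA, whereas both uninjured libraries lack it and both week 2 libraries hold it. Replicate numbers do not pair the samples. One of the factors called is not reported here.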

Additional observations from a re-analysis of the deposited data

How the results depend on the processing

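The number of day 3-only regions was 2567 with lists of equal length and 3407 with −log10 q of 5 or more asked of the day 3 lists only, 5403 with the day 3 lists shortened to the longest other list (chosen after seeing the data), and 8050, 7736 and 7419 under a −log10 q of 5 in every list, 200 bases around summits, and a required overlap of the day 3 peaks. Leaving out 1 list gave 7990 to 18037 regions, and 2618 to 4817 with equal lengths. Of the regions, 90.6% lay within 100 kb of a gene span and 70.5% within 100 kb of a RefSeq gene start. The letters TGANTCA were in 25% of the 28 windows of regions from the equal-length lists, and TGACTCA in 17.9% (interval 7.88% to 35.6%). In the 122 windows wholly inside a region the shares were 16.4% and 8.2% (interval for TGACTCA 4.51% to 14.4%). The planned motif settings around summits were not run, since no genome was at hand.

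The share of linked genes called higher at day 3 than in the other groups was below, and the share called lower above, that of all genes in all 20 settings, against the mean of the other 4 groups and against uninjured hearts alike. With DESeq2 the share lower was 12.1% against the mean of the other 4 groups (all genes, 9.91%) and 12.2% against uninjured hearts (8.83%), and with no filter 9.89% (7.12%) and 10.2% (6.9%). At day 7 against day 3, DESeq2 gave 3.91% higher and 3.32% lower (all genes, 3.67% and 3.29%), and no filter 2.8% and 1.94% (2.62% and 1.83%). At week 4 against day 3, DESeq2 gave 11.6% higher and 10.4% lower (10.5% and 11.8%), and no filter 10.6% higher (8.61%). Over all genes tested, 66.7% of calls were higher at day 3 against the mean of the other groups in edgeR, 53.8% in DESeq2, where the median gene moved by −0.13, and 54.5% with no filter, where it moved by −0.17. The cause was not tested. Leaving out 1 library gave 2.04% to 7.52% higher and 1.16% to 6.55% lower against the mean of the other groups, and 2.48% to 6.63% higher and 1.61% to 7.33% lower against uninjured hearts. For day 7 against day 3 it gave 0.0806% to 2.33% higher and 0.107% to 0.749% lower, and for week 4 against day 3 1.96% to 7.27% higher and 2.28% to 6.71% lower.

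Samples with the same replicate number did not deviate together (correlations −0.0181 to 0.0288 over 10 pairs of groups). With the replicate number as a block, 7.22% of linked genes were higher and 6.23% lower at day 3 against the mean of the other 4 groups (all genes, 9.23% and 4.86%), and Thsd4 had a log2 difference of 0.13. Of the 65 named genes with a call, 32 kept it without any 1 library. Genes without a call changed direction when 1 library was left out, with log2 differences of Ltbp1 −0.36 to 0.05, Thsd4 −0.29 to 0.12, Inhba −0.44 to 1.16, Tgfbr3 −0.82 to 0.09, Met −0.79 to 5.11, Bag3 −0.69 to 0.09, Batf3 −0.85 to 2.83, Cebpb −0.51 to 0.03, E2f3 −0.14 to 0.83, Mrtfa −0.56 to 0.28, Mb −7.32 to 0.09, Ttn −1.89 to 0.08, Lcor −1.97 to 0.22, Bms1 −0.01 to 0.27 and Ier5l −0.56 to 0.29.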
